A study of Mus musculus with 24 samples.

Results

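The B cell receptor signalling core comprises 10 genes, chosen by name for their place in the pathway that carries a signal from the antigen receptor into the B cell. They are Cd79a, Cd79b, Lyn, Blk, Syk, Btk, Blnk, Plcg2, Vav1 and Prkcd, and all 10 were found among the 14106 genes of the deposited RNA-seq count table. B cells from mouse spleens were stimulated with lipopolysaccharide and interleukin 4, at first for 28 h without drug and then for another 32 h with 2 µM 4-hydroxytamoxifen, which makes 60 h in all. In the Spt5-depleted group (Supt5hFl/- Rosa26ERT2-cre/+, 3 libraries) the cells carried 1 floxed and 1 null allele of the gene for Spt5, an RNA polymerase II pausing and elongation factor, and a Cre recombinase that the drug activates. In the WT group (Rosa26ERT2-cre/+, 3 libraries) the cells carried the recombinase without the floxed and null alleles and received the same drug. Both groups therefore share the Cre allele, the drug and the stimuli, and the null allele cannot be told apart from the induced deletion. Whether each library stands for another animal is not stated in the labels, and the p-values below measure how far these libraries vary, which may be technical variation alone. The labels name the cells mature in some fields and immature in another.

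The antigen receptor of a B cell is a membrane immunoglobulin bound to a heterodimer of CD79a and CD79b, whose cytoplasmic tails carry the tyrosine motifs that signal. Src-family kinases such as Lyn and Blk phosphorylate those motifs, and Syk docks on them and phosphorylates the adaptor BLNK. BLNK gathers Btk, phospholipase C-gamma-2 and the exchange factor Vav1, and the lipase then makes the second messengers that release calcium and activate protein kinase C isoforms, among them PKC-delta, the product of Prkcd. Btk is best known from X-linked agammaglobulinaemia in humans and from the xid mouse, in which its loss or mutation impairs B cells.

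Btk, Blnk and Vav1 were lower in Spt5-depleted cells, at 59.8%, 59.9% and 63.2% of the fitted WT level. Plcg2 was also lower, at 83.4% of that level. In bulk libraries fewer cells of a type and less RNA per cell cannot be told apart. The receptor chains Cd79a and Cd79b, the kinases Lyn, Blk and Syk, and Prkcd did not pass the test. At an adjusted p under 0.05, 4 of the 10 genes were lower and 0 were higher, while 30.6% of all 12024 tested genes were lower and 31.8% were higher. The share of lower genes was thus near that of all genes, so the count itself is not a result about these genes. Beside the 0 of 10 that were higher by edgeR, 1 gene, Blk, was higher at an unadjusted p under 0.05 and 0 were higher by DESeq2. In either direction, 62.4% of all genes passed. Among the 5741 genes within the range of mean CPM of the 10 genes, 34.5% were lower and 30.3% higher. The median log2 fold change was -0.05 over the 10 genes and 0.005 over all tested genes.

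**Figure D1:**
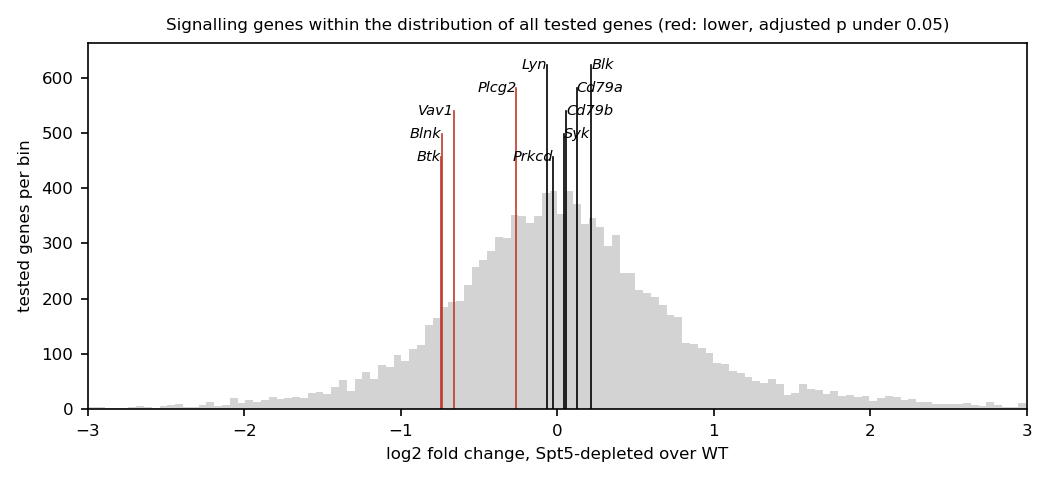
Histogram of the log2 fold change (Spt5-depleted over WT, x axis) of all tested genes (y axis, genes per bin), with a line for each of the 10 signalling genes. The 4 red lines mark the genes that were lower; 123 genes lie beyond the axis limit of 3 on either side.

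The promoters of Btk, Blnk and Vav1 are shown because these 3 genes were lower by similar amounts, and that of Cd79a, a receptor chain, because it did not pass the test. RefSeq (build GRCm38.p6) gave a promoter entry for 7 of the 10 genes and none was matched for Cd79b, Lyn and Blk. Each window runs from 250 bases before to 50 bases after the annotated start, 5′ to 3′ on the gene's strand. The windows are chrX:134583091-134583390 on the minus strand for Btk, chr19:40994172-40994471 on the minus strand for Blnk, chr17:57278850-57279149 on the plus strand for Vav1 and chr7:24897247-24897546 on the plus strand for Cd79a. Capitals mark every exact match, on either strand, to 1 of 3 motifs searched. These were the TATA box TATAAA, the Ets-type sequence GAGGAAG and the palindrome CCCNNGGG found in sites of the B lineage factor EBF1.
Btk: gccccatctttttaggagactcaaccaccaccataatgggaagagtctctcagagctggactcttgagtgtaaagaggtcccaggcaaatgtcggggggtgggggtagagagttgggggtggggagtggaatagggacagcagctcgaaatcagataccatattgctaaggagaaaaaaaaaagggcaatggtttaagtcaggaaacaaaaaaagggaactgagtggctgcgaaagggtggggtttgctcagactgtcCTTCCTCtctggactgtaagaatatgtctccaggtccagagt
Blnk: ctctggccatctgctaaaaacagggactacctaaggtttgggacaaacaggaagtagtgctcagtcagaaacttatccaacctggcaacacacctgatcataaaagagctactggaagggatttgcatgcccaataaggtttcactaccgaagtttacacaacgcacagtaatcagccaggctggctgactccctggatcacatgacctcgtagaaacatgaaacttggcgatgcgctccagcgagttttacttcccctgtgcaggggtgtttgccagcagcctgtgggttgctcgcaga
Vav1: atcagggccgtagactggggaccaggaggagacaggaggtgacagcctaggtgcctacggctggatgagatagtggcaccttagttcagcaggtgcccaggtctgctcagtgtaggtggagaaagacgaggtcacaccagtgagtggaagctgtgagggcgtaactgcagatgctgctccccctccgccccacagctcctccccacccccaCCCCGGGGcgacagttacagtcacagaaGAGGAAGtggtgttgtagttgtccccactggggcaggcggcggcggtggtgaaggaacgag
Cd79a: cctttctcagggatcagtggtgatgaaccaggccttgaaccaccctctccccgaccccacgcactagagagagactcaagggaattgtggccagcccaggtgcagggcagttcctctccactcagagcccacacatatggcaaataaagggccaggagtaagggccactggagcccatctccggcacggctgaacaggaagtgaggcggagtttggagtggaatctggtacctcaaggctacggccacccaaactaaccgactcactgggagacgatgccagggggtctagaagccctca

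Btk held 1 match to GAGGAAG, starting at position 9 after the start site, and Vav1 held 1, starting at position -11. Vav1 also held the palindrome, starting at position -39, and the 2 motifs did not overlap. Blnk and Cd79a held no exact match to the 3 motifs in these windows, and neither did the Plcg2 window. Motif matches were not limited to genes that were lower. A window of Prkcd, which did not pass the test, held TATAAA, starting at position -244, and CCCNNGGG, starting at position -76. Another Prkcd window and the Syk windows held none of the 3 motifs. The Blnk and Cd79a windows do hold AGGAAG, which lacks only the first base of GAGGAAG. Other forms of Ets or EBF1 sites were not searched, so these windows were not shown to lack such sites. Of 32851 RefSeq mouse promoter windows of this length, 13.6% held TATAAA, 13.6% held GAGGAAG and 13.7% held CCCNNGGG. The GC content was 49.3% for Btk, 50% for Blnk, 61.7% for Vav1 and 58.3% for Cd79a, and the median of all windows was 52.7%. No motif of the 3 was present in all of Btk, Blnk and Vav1, and their GC content lay on both sides of the median.

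The label checks came out as follows. Counts of the targeted gene, Supt5, were 189, 196 and 314 in Spt5-depleted libraries, against 3796, 3512 and 4666 in WT libraries (log2 fold change -3.94 ± 0.14 SE, adjusted p = 1.26e-10). Totals ran between 17306549 and 21441575 counts in Spt5-depleted libraries and between 23340978 and 25649611 in WT libraries, so every Spt5-depleted library was the shallower. The 10 genes together took 0.402 to 0.448% of the counts of an Spt5-depleted library and 0.410 to 0.428% of those of a WT library. Xist, made from the inactive X chromosome, had 18 to 40 counts in Spt5-depleted libraries and 11367 to 20130 in WT libraries, while Kdm5d, Uty, Ddx3y and Eif2s3y, which are Y-linked, had 324 to 1252 counts each in Spt5-depleted libraries and 0 to 2 in WT libraries. Sex-linked RNA thus split the libraries just as genotype did, and both cannot be told apart in any difference given here. As for the labelled cell type, all 8 B cell markers passed the filter on low counts, among them Pax5 at 584 and 591 CPM in Spt5-depleted and WT cells. All 10 T cell markers passed that filter too, so passing it cannot tell the cell type.

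Cd79a and Cd79b encode the signalling chains of the receptor. Cd79a had 936, 738 and 840 CPM in Spt5-depleted libraries, against 704, 805 and 801 CPM in WT libraries (CPM, TMM-scaled counts divided by the library size in units of 1e6). The groups overlapped, and the highest value was in Spt5-depleted replicate 1. Its log2 fold change was 0.12 ± 0.10 SE (95% interval -0.09 to 0.34, adjusted p = 0.301). Cd79b had 1917, 1616 and 1667 CPM in Spt5-depleted libraries, against 1674, 1579 and 1739 CPM in WT libraries, again with overlap and with replicate 1 of the Spt5-depleted group highest. Its log2 fold change was 0.06 ± 0.09 SE (95% interval -0.14 to 0.26, adjusted p = 0.60). Without TMM factors, that is with library totals alone, the median of all genes lay at 0.16, and both passed as higher (0.28 with adjusted p = 0.0189 for Cd79a, and 0.22 with adjusted p = 0.0407 for Cd79b).

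Among the kinases that act on the receptor tails, Lyn had 154, 153 and 149 CPM in Spt5-depleted libraries, against 175, 162 and 141 CPM in WT libraries. The Spt5-depleted values lay within the WT range (log2 fold change -0.07 ± 0.09 SE, 95% interval -0.26 to 0.13, adjusted p = 0.536), and with library totals alone the log2 fold change was 0.09. Blk, a Src-family kinase expressed mainly in B cells, had 34.2, 30.3 and 29.9 CPM in Spt5-depleted libraries, against 29.1, 26.9 and 25.2 CPM in WT libraries. All 3 Spt5-depleted values were above all 3 WT values, as for 34.2% of all tested genes (groups without overlap in either direction made up 67.5%, and 5 of the 10 signalling genes), and the difference did not pass the test (log2 fold change 0.22 ± 0.10 SE, 95% interval 0.002 to 0.43, adjusted p = 0.0728). Blk passed as higher with library totals alone (0.37, adjusted p = 0.00415) and when WT replicate 1 was left out (0.27, adjusted p = 0.0424). Syk, the kinase that docks on the phosphorylated tails, had 159, 159 and 175 CPM in Spt5-depleted libraries, against 169.6, 149.9 and 159 CPM in WT libraries. The groups overlapped (log2 fold change 0.04 ± 0.09 SE, 95% interval -0.14 to 0.23, adjusted p = 0.676).

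Blnk, the adaptor that Syk phosphorylates, was lower in all Spt5-depleted libraries. It had 515, 510.4 and 517 CPM there, against 819, 876 and 880.5 CPM in WT libraries. The Spt5-depleted values lay close together and far below the lowest WT value. The means were 514 ± 3.47 and 858.5 ± 34.0 CPM in Spt5-depleted and WT cells (SD, n = 3 each), a log2 fold change of -0.74 ± 0.08 SE (95% interval -0.91 to -0.57, adjusted p = 2.23e-06). No overlap with lower values in Spt5-depleted cells was found for 33.3% of tested genes.

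Btk, the Tec-family kinase that phosphorylates phospholipase C-gamma-2, fell by nearly the same amount. Its values were 73.8, 69.2 and 78.9 CPM in Spt5-depleted libraries, against 114.5, 123 and 133 CPM in WT libraries, with no overlap. The means were 74.0 ± 4.88 and 124 ± 9.34 CPM in Spt5-depleted and WT cells (SD, n = 3 each), a log2 fold change of -0.74 ± 0.09 SE (95% interval -0.94 to -0.55, adjusted p = 6.02e-06). Btk is X-linked, so the sex-linked difference between the libraries bears on it. Among 317 tested X-linked genes with a RefSeq promoter entry, 33.8% were lower and the median log2 fold change was -0.04. Of these, 43, Btk included, had a log2 fold change at or below that of Btk.

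Vav1, a guanine nucleotide exchange factor for Rac, had 70.7, 68.8 and 65.9 CPM in Spt5-depleted libraries, against 110.0, 106 and 108 CPM in WT libraries. The groups were well apart, with means of 68.5 ± 2.43 and 108 ± 1.79 CPM in Spt5-depleted and WT cells (SD, n = 3 each), a log2 fold change of -0.66 ± 0.08 SE (95% interval -0.84 to -0.49, adjusted p = 6.52e-06). Plcg2, the lipase that makes inositol trisphosphate and diacylglycerol, had 269, 263 and 280.4 CPM in Spt5-depleted libraries, against 338, 321 and 315 CPM in WT libraries. It was lower without overlap, by a smaller amount (log2 fold change -0.26 ± 0.08 SE, 95% interval -0.43 to -0.09, adjusted p = 0.0110). It did not pass when Spt5-depleted replicate 2 was left out (-0.24, adjusted p = 0.0592) or with library totals alone (-0.10, adjusted p = 0.288), whereas Btk, Blnk and Vav1 passed in both settings.

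Prkcd, a protein kinase C isoform activated by diacylglycerol, had 201, 198 and 217 CPM in Spt5-depleted libraries, against 211, 202 and 214 CPM in WT libraries. The groups overlapped (log2 fold change -0.03 ± 0.08 SE, 95% interval -0.20 to 0.15, adjusted p = 0.795). Prkcb, a protein kinase C isoform that acts in NF-kB activation in B cells, had a log2 fold change of 0.04 (95% interval -0.16 to 0.24, adjusted p = 0.756).

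**Figure D2:**
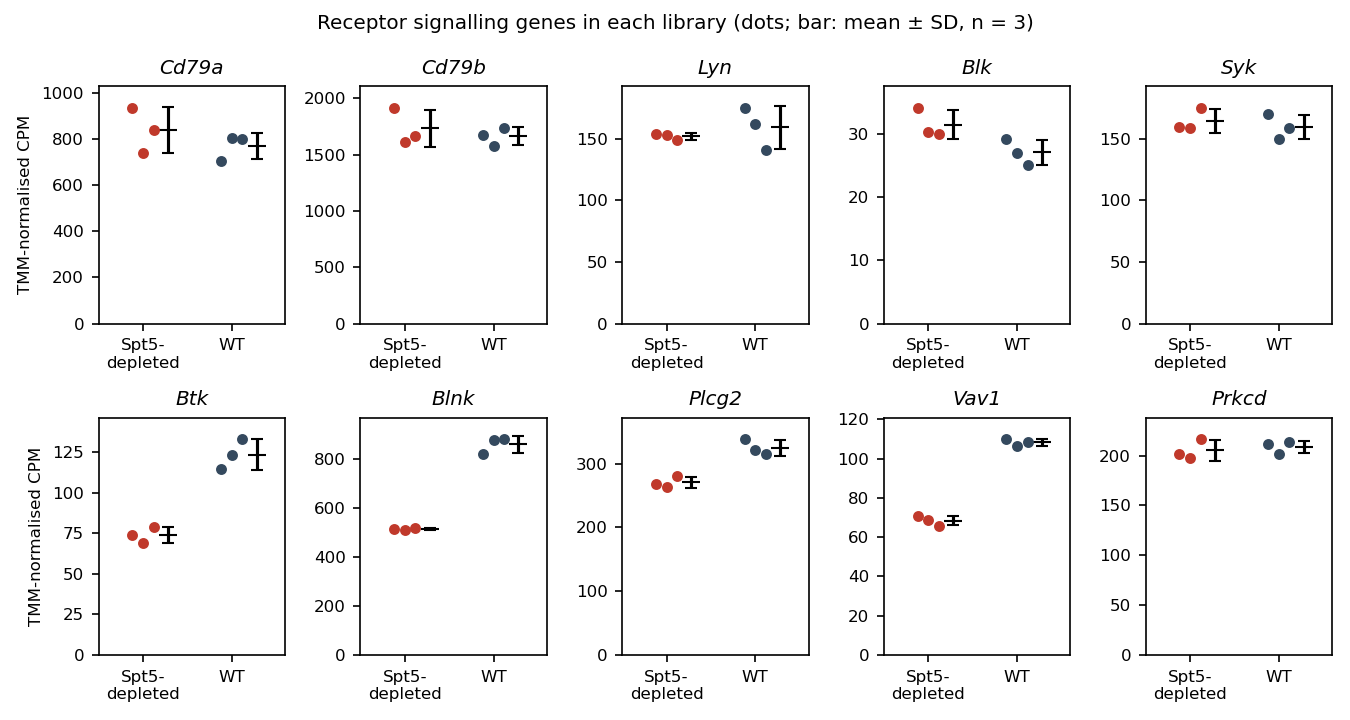
TMM-normalised CPM (y axis, from 0) of each of the 10 genes in the 3 Spt5-depleted libraries (left in each panel) and the 3 WT libraries (right). Dots are libraries and bars show the mean with SD, n = 3; Btk, Blnk, Plcg2 and Vav1 are lower without overlap and Blk is higher without overlap.

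The 6 genes that did not pass were not shown to be equal in the groups. Their 95% intervals reached at most 0.43 upward, for Blk, and -0.26 downward, for Lyn, on the log2 scale. None of the 6 intervals thus reached down to the fitted log2 fold changes of Vav1, Btk or Blnk. In the authors' deposited table the same 4 genes had an adjusted p-value under 0.05 and all 10 had the same sign as here, with 52% of its genes past that threshold. The log2 fold changes in the authors' deposited table were -0.75 for Blnk, -0.75 for Btk, -0.67 for Vav1 and -0.27 for Plcg2.

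**Figure D3:**
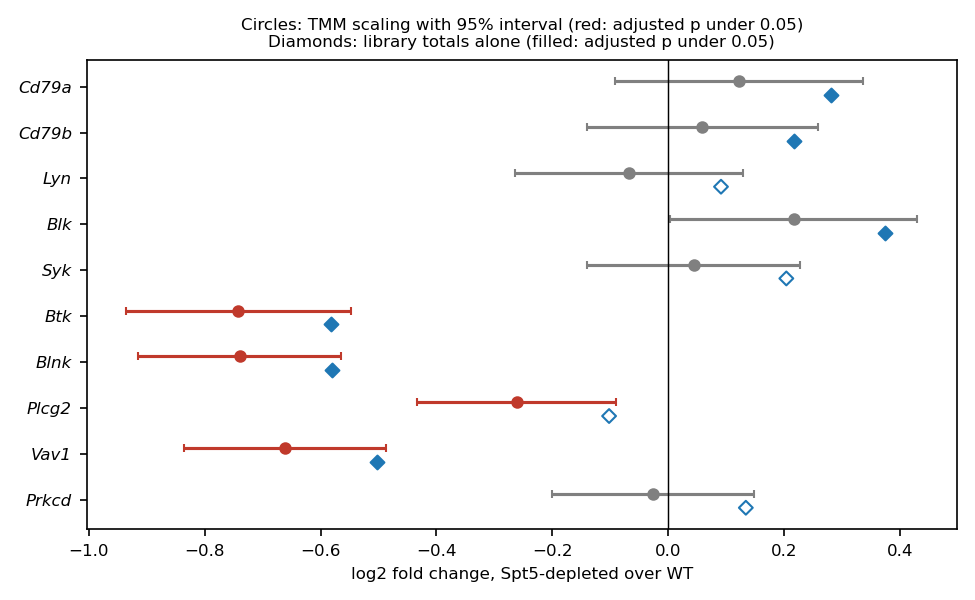
Log2 fold change (x axis, Spt5-depleted over WT) of each gene with TMM scaling (circles with 95% intervals, red where adjusted p is under 0.05) and with library totals alone (diamonds, filled where adjusted p is under 0.05). The shift between both scalings leaves Btk, Blnk and Vav1 lower, while Plcg2 no longer passes and Cd79a, Cd79b and Blk pass as higher.

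A ratio of counts within a library needs no scaling between libraries, so 7 ratios of gene pairs were compared with an exact two-sided permutation test. With 3 libraries against 3 the smallest p this exact permutation test allows is 0.1, so no pair could pass. The 5 pairs at that p had an adjusted p of 0.14 over the 7 pairs. These 5 pairs had no overlap between the groups, as did 67.5% of single tested genes, so their number is not a result in itself. The pairs were chosen with earlier results known, and ratios with Btk, Blnk or Vav1 carry the falls of those genes given above. The Cd79a to Cd79b ratio was 0.488, 0.457 and 0.504 in Spt5-depleted libraries, against 0.420, 0.510 and 0.461 in WT libraries. The chains of the heterodimer thus kept overlapping ratios (difference of mean log2 ratios 0.06, exact permutation p = 0.7).

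The Blnk to Syk ratio was 3.23, 3.22 and 2.95 in Spt5-depleted libraries, against 4.83, 5.84 and 5.54 in WT libraries (log2 difference -0.78, exact permutation p = 0.1). The Btk to Syk ratio was 0.463, 0.436 and 0.451 in Spt5-depleted libraries, against 0.675, 0.823 and 0.839 in WT libraries (log2 difference -0.78, exact permutation p = 0.1). Relative to the kinase upstream of them, adaptor and Tec kinase counts were thus lower in each Spt5-depleted library than in each WT library.

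The Plcg2 to Btk ratio was 3.64, 3.81 and 3.55 in Spt5-depleted libraries, against 2.96, 2.60 and 2.37 in WT libraries (log2 difference 0.48, exact permutation p = 0.1). The Vav1 to Plcg2 ratio was 0.263, 0.261 and 0.235 in Spt5-depleted libraries, against 0.325, 0.332 and 0.344 in WT libraries (log2 difference -0.40, exact permutation p = 0.1). Counts of Plcg2 relative to Btk and to Vav1 were thus higher in each Spt5-depleted library than in each WT library. The Lyn to Blk ratio was 4.51, 5.05 and 4.97 in Spt5-depleted libraries, against 6.02, 6.02 and 5.59 in WT libraries (log2 difference -0.28, exact permutation p = 0.1). The Prkcd to Prkcb ratio overlapped between the groups (log2 difference -0.07, exact permutation p = 0.5, adjusted p = 0.583).

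**Figure D4:**
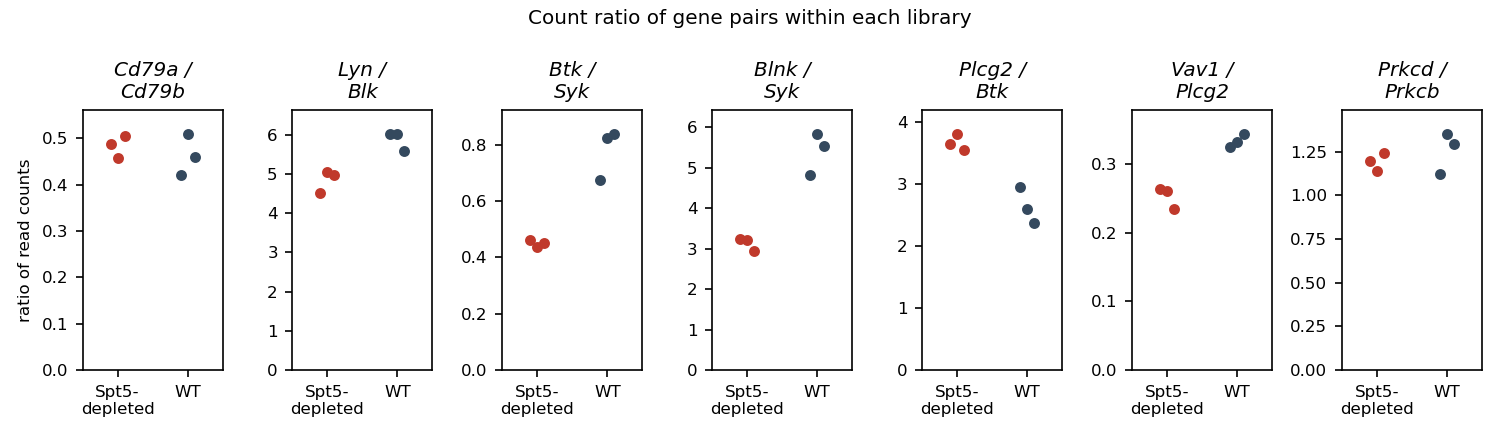
Ratio of the read counts of 7 gene pairs (y axis, from 0) within each of the 3 Spt5-depleted libraries (left) and the 3 WT libraries (right). The ratios of Btk and Blnk to Syk, of Lyn to Blk and of Vav1 to Plcg2 are lower without overlap. That of Plcg2 to Btk is higher without overlap, while the remaining ratios overlap. Of single tested genes, 67.5% had no overlap between the groups.

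The profile most like that of a gene over the 6 libraries was looked for among the other core genes and the tested pathway genes, 122 candidates, by the root mean square difference of centred log2 CPM. For Cd79a it was Cd79b (0.10), while for Cd79b it was Rac2 (0.02), a Rac GTPase of blood cells, so the likeness of the receptor chains was not mutual. For Btk it was Blnk (0.06). For both Blnk (0.06) and Vav1 (0.03) it was Lat2, which encodes the membrane adaptor NTAL of B and myeloid cells. For Plcg2 it was Grb2 (0.04), an adaptor of the RAS pathway, and for Syk it was Pik3cd (0.03), the catalytic subunit of the leukocyte PI3-kinase. For Blk it was Dock2 (0.06), a Rac exchange factor. Likeness over 6 libraries in 2 groups is given as a description.

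The rest of the pathway was read from 7 lists with 119 genes, of which 113 were tested. Of these, 39 were higher and 39 lower, 35 did not pass, and the median log2 fold change was 0.03. These shares are near those over all tested genes (31.8% higher and 30.6% lower). Scaled by totals alone, 52 passed as higher and 33 as lower. The total was thus balanced under TMM scaling and tilted upward without it, as for all genes.

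Proximal regulators and adaptors were mostly lower, 15 of 23 tested against 4 higher, with a median log2 fold change of -0.49. With library totals alone 13 were lower and 6 higher. Over all tested genes 30.6% were lower and 31.8% higher (2694 and 4962 of 12024 with library totals alone). Grap, a GRB2-related adaptor, had 45.4, 47.2 and 46.5 CPM in Spt5-depleted libraries, against 179, 190.5 and 219.98 CPM in WT libraries (log2 fold change -2.08 ± 0.10 SE, adjusted p = 3.75e-10). The groups were far apart, and genes for inhibitors were also among the falls. Ptpn6, the phosphatase SHP-1, stood at 146 ± 2.70 and 264 ± 23.5 CPM in Spt5-depleted and WT cells (SD, n = 3 each), a log2 fold change of -0.86 (adjusted p = 1.10e-06). Inpp5d, the lipid phosphatase SHIP-1, and Csk, the kinase that restrains Src-family kinases, were lower, with log2 fold changes of -0.49 (adjusted p = 0.000201) and -0.38 (adjusted p = 0.00102). Ptprc, the phosphatase CD45, did not pass (-0.24, adjusted p = 0.0855). The 3 rises with the smallest p were those of Cblb, a ubiquitin ligase that restrains receptor signals (0.62), Dok3, an inhibitory adaptor (0.89), and Ptpn22, a phosphatase of Src-family kinases and Syk-family kinases (0.60).

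Of 20 tested relatives of the core genes 7 were higher and 7 lower (median log2 fold change -0.23), which is near the shares over all tested genes, 31.8% higher and 30.6% lower, so the count is not a result about these genes. Lcp2, which encodes SLP-76, the relative of BLNK best known in T cells, had 83.7, 80.2 and 89.6 CPM in Spt5-depleted libraries, against 313, 312 and 338 CPM in WT libraries. This was a larger fitted fall than that of Blnk (log2 fold change -1.93 ± 0.09 SE, adjusted p = 3.45e-10), and the difference between both genes was not tested. Plcg1, the sister of Plcg2, had a mean of 3.16 ± 0.65 and 8.88 ± 0.53 CPM in Spt5-depleted and WT cells (SD, n = 3 each), a log2 fold change of -1.48 (adjusted p = 3.35e-06). Fyn, a Src-family kinase like Lyn and Blk, was lower (-0.98, adjusted p = 1.24e-06). Vav2, a relative of Vav1, was higher (0.69, adjusted p = 6.49e-05), as was Prkce, a protein kinase C gene (0.77). Fgr, a Src-family kinase of myeloid cells and of B cells, had 3.80, 4.12 and 4.28 CPM in Spt5-depleted libraries, against 2.40, 2.04 and 1.44 CPM in WT libraries (1.05, adjusted p = 0.000656).

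Calcium and NFAT genes, which act downstream of Plcg2, were mostly higher, 11 of 18 tested against 1 lower. Their median log2 fold change was 0.32. Among all tested genes, 31.8% passed upward and 30.6% downward. Scaling by totals alone gave 13 rises and 0 falls in this list, beside 4962 rises and 2694 falls among all 12024 genes. Orai1, the pore of the store-operated calcium channel, had 66.5, 60.2 and 60.9 CPM in Spt5-depleted libraries, against 28.4, 27.2 and 30.5 CPM in WT libraries (log2 fold change 1.12 ± 0.09 SE, adjusted p = 1.12e-07). Nfatc1, a calcium-regulated transcription factor, and Ppp3ca, a catalytic subunit of calcineurin, rose by log2 fold changes of 0.89 (adjusted p = 1.08e-06) and 0.90 (adjusted p = 3.31e-06). The 1 lower gene was Ppp3cb, another catalytic subunit of calcineurin (-0.35, adjusted p = 0.0103), which did not pass without Spt5-depleted replicate 3 or with library totals alone. The calmodulin genes of this list encode the same protein, and reads could be shared with related copies.

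In the arm that leads to NF-kB, 3 of 9 tested genes were higher and 3 lower (median log2 fold change 0.09), again near the 31.8% and 30.6% over all tested genes. Bcl10 and Malt1, which encode an adaptor and a paracaspase of NF-kB activation, had log2 fold changes of 0.11 and 0.09 and did not pass (adjusted p = 0.390 and 0.468). Chuk, the kinase IKK-alpha, and Tab1, a partner of TAK1, were lower (-0.70 and -0.71), and Map3k7, the kinase TAK1, with Ikbkg and Ikbkb of the IKK complex, was higher (0.76, 0.45 and 0.23).

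Of 14 tested RAS and ERK genes 5 were higher and 2 lower (median log2 fold change 0.06), and 5 were lower without WT replicate 3. The share of higher genes in this list and in the next is near the 31.8% over all tested genes. The share of lower genes in both lists is below the 30.6% over all tested genes, which was not tested. The 2 lower genes were exchange factors that respond to diacylglycerol or calcium, Rasgrp2 (-1.31) and Rasgrp1 (-0.69), while Mapk3, which encodes ERK1, and Rasa1, which encodes a RAS GTPase-activating protein, were higher (0.39 and 0.38). Of 16 PI3K and AKT genes 6 were higher and 3 lower (median 0.21), and 10 were higher with library totals alone. Pik3ap1, the adaptor BCAP of the receptor, was lower (-0.78), as were Pik3r5 (-1.58) and Dapp1 (-0.42), and the transcription factor gene Foxo1 and the regulatory subunit genes Pik3r1 and Pik3r2 were higher (0.54, 0.60 and 0.61). Of 13 RAC, RAP and actin genes (median -0.41) 8 were lower and 3 higher, against 30.6% and 31.8% of all tested genes. Without Spt5-depleted replicate 1, 1 gene of this list was higher. Here Rac1, a substrate of Vav1, and the actin regulators Cfl1 and Dock2 were higher (0.66, 0.27 and 0.20), and Rap1a, Rhoa and Ezr were lower (-0.74, -0.50 and -0.49). Rac1, Rap1a, Rhoa and Cfl1 have close relatives or processed pseudogenes that could share their reads, so their values are uncertain.

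**Figure D5:**
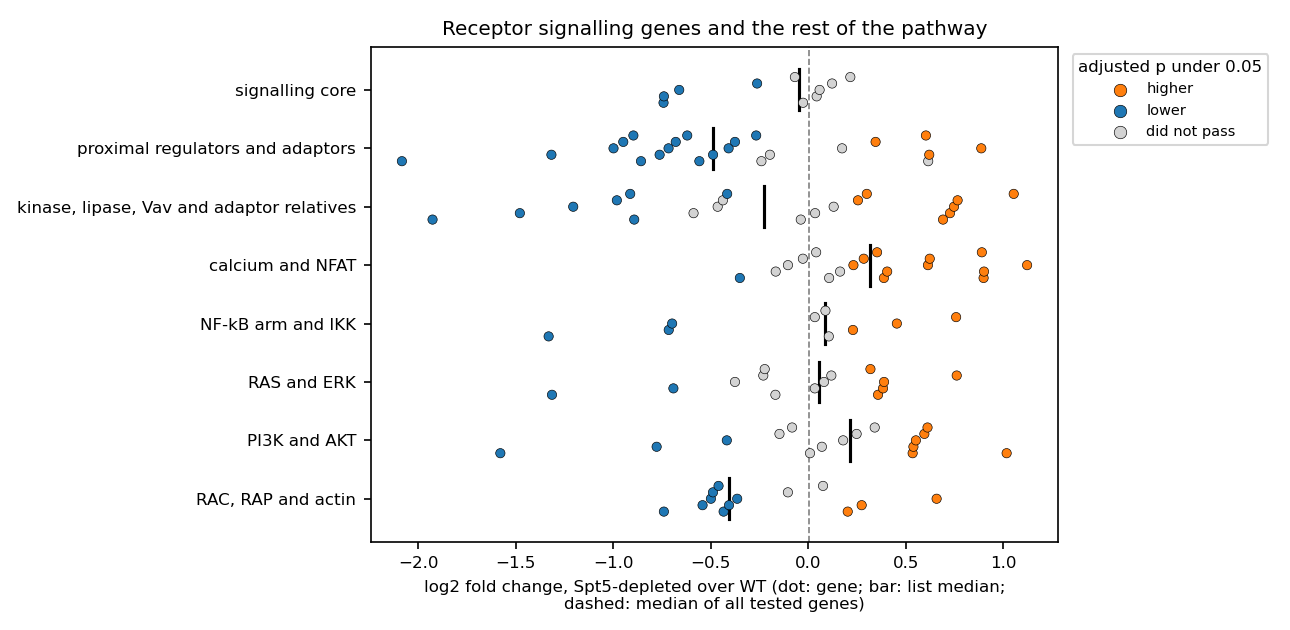
Log2 fold change (x axis, Spt5-depleted over WT) of each tested gene of the signalling core and of the 7 pathway lists, coloured by call at an adjusted p under 0.05, with list medians as bars and the median of all tested genes as a dashed line. The proximal regulators have a median of -0.49 and the calcium and NFAT genes one of 0.32.

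Lyn, Syk, Btk, Plcg2, Vav1 and Prkcd are also expressed in myeloid cells, and markers of such cells moved with genotype. Of 7 tested macrophage and monocyte markers, out of 10 listed, 5 were higher in Spt5-depleted cells, and 3 were without WT replicate 1. Their summed level was 29.2, 63.6 and 50.2 CPM in Spt5-depleted libraries, against 24.0, 32.5 and 27.3 CPM in WT libraries. The sum of Spt5-depleted replicate 1 lay within the WT range, and those of the other two Spt5-depleted libraries lay above it. The part of myeloid cells in the values of the signalling genes was not tested. T cell markers summed to 9.55 to 27.5 CPM in Spt5-depleted libraries and 21.1 to 25.2 CPM in WT libraries, with 0 of 10 called by edgeR (0 at an unadjusted p under 0.05, 0 by DESeq2, 1 lower by limma-voom and 1 lower with the replicate number as a block) and 5 lower without Spt5-depleted replicate 2. NK cell markers summed to 6.97 to 12.04 CPM and 12.4 to 19.4 CPM in Spt5-depleted and WT libraries, with 2 of 4 lower. Of 4 tested dendritic cell markers 2 were higher and 1 lower. Their sums, 97.9 to 99.7 CPM in Spt5-depleted libraries and 95.6 to 113 CPM in WT libraries, were mostly Flt3, which did not pass (82.1 ± 1.83 and 86.7 ± 6.87 CPM in Spt5-depleted and WT cells, SD, n = 3 each). Xcr1, a chemokine receptor of cross-presenting dendritic cells, was higher, at 5.98 ± 0.45 and 0.88 ± 0.16 CPM in Spt5-depleted and WT cells (log2 fold change 2.75). Batf3, a transcription factor of those cells, was lower, at 2.26 ± 0.24 and 12.99 ± 2.63 CPM in Spt5-depleted and WT cells (log2 fold change -2.52). Of 8 neutrophil markers listed, 2 passed the filter on low counts, and these summed to at most 3.04 CPM in any library. Of 8 erythroid markers listed, 4 were in the deposited count table, and 0 passed the filter. Of 8 B cell markers 3 were lower, among them Cd22 and Ighm, and 1, Cr2, was higher. Of 7 plasma cell markers 2 were higher and 2 lower. Beside these marker counts, 31.8% of all tested genes were higher and 30.6% lower.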

How the data were processed

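The RNA-seq libraries, 3 Spt5-depleted and 3 WT, were used, grouped by their titles, and 18 samples of other assays were not analysed here. RNA was isolated with Trizol and per the labels' protocols the Lexogen SENSE mRNA-seq kit was used for the libraries. Build mm9 and the tools DESeq2 1.10.1, featureCounts 1.5.0-p1, TopHat, Bowtie2 2.1.0 and cutadapt 1.10 are named in the submitters' processing notes. How multi-mapped reads and strand were treated, and with which annotation, is not given in the sources used here, so reads of overlapping genes or close paralogs cannot be told apart.

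The values deposited are raw counts per gene and library. The columns of the Spt5-depleted libraries are headed KO and were matched to the titles by number. An adjusted p-value and a log2 fold change per gene, computed by the authors, stand in the same table. Each of its 14106 genes has at least 10 counts over the 6 libraries. None of the 10 signalling genes carries a name suffix, which 2269 other rows do and which may mark overlap with another gene. Among the pathway and marker genes named, the rows for Ighm and Pik3cd carry one.

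In R 4.3.3, edgeR 4.0.16 kept 12024 genes with filterByExpr and scaled libraries by TMM, an approach that takes most genes as unchanged. The factors were 1.04, 1.06 and 1.08 for Spt5-depleted libraries and 0.949, 0.943 and 0.947 for WT libraries. The groups were compared with the robust quasi-likelihood F test of edgeR, two-sided. At an adjusted p under 0.05, 62.4% of these genes passed, so it is uncertain that most were unchanged. P-values were adjusted over all tested genes by the Benjamini-Hochberg method, with a threshold of 0.05. CPM values are not divided by gene length, so levels were not compared between genes. Counting noise alone did not account for the spread within a group. The chi-square per degree of freedom was 5.65 to 9.40 between Spt5-depleted libraries and 23.9 to 28.1 between WT libraries. The WT libraries thus differed more among themselves. The tests were tried on simulated counts.

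The genes, the pathway lists, the marker lists and the tests were chosen with earlier results of these data known, so no list was tested. Named pathway genes are up to 3 rises and 3 falls with the smallest p in each list and, whatever they showed, a few direct partners, among them Prkcb, Ptpn6, Inpp5d, Csk, Ptprc and Lcp2. A few others chosen in this way are left out here. Fgr is the third rise of its list, and Bcl10, Malt1, Flt3, Xcr1 and Batf3 were named after their values were seen. The alternatives changed the scaling (library totals alone, upper-quartile factors, or the size factors of DESeq2), the filter (none, or at least 5 CPM on average), the test (limma-voom with limma 3.58.1, or DESeq2 1.42.0), the threshold (a 2-fold minimum, or an adjusted p under 0.01), the model (the replicate number as a block) and the libraries (each left out in turn).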

Additional observations from a re-analysis of the deposited data

How the results depend on the processing

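Of the 16 alternatives, 15 kept Btk, Blnk and Vav1 lower with an adjusted p under 0.05, and the 2-fold minimum ended all 3 calls, since their log2 fold changes of -0.74, -0.74 and -0.66 lie short of it. Plcg2 was also lost at an adjusted p under 0.01 and under the 2-fold minimum. Of the 10 genes, 3 were higher with library totals alone and 0 were lower with the 2-fold minimum. Leaving out each library in turn gave 0 to 1 higher and 3 to 4 lower of the 10 genes, 34 to 40 higher and 38 to 44 lower pathway genes, 3431 to 3784 higher and 3281 to 3678 lower among all genes (main counts 3823 and 3681), and 6 to 10 higher and 3 to 8 lower markers of other cell types (main counts 7 and 3). The most lower markers, 8, came without Spt5-depleted replicate 2. With the 2-fold minimum 1187 of all genes were higher and 917 lower, and 3 pathway genes were higher and 8 lower. Without the filter 11 markers of other cell types were higher, and 3 were with a mean of at least 5 CPM. The Cd79a to Cd79b log2 ratio difference ran from -0.01 to 0.13 over the left-out libraries. Library totals alone raised the share of higher calls to 64.8%, against 50.9%; no spike-in fixes the scale, and the cause was not tested.

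With the replicate number as a block, 3755 genes were higher and 3614 lower, and the same number of the 10 genes, 4, were lower (Plcg2 with adjusted p = 0.0264). Correlations of same-numbered libraries' deviations were 0.03, -0.05 and -0.03, and 1 of 6 libraries correlated best with its own number. These values show no pairing by number. Whether same-numbered libraries shared a day or batch was not tested.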
